A study of Mus musculus with 20 samples.

Results

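The genes described here are 44 mouse genes characteristic of T cells and natural killer (NK) cells. They were listed by name, and all 44 were found among 38900 named genes in RNA sequencing of 20 tumours. SSM3, a mouse mammary tumour line positive for the oestrogen receptor, had been grown in a mammary gland (the fourth, inguinal one) of mice of strain 129S6/SvEv, 2 to 4 months old. Treatment started at about 150 mm3, and each of 4 groups had 5 tumours. The letrozole + anti-PD-1 mice were ovariectomised, given 1 mg/kg letrozole daily for 25 days and 250 µg of antibody against PD-1 on days 3, 5 and 7. The anti-PD-1 mice had sham surgery, 5% ethanol in saline as the vehicle and the same antibody doses. The letrozole mice had ovariectomy and letrozole without the antibody, and the vehicle mice had sham surgery and vehicle. The 5% ethanol is recorded for all 4 groups. Letrozole blocks oestrogen synthesis, and the surgery and the drug cannot be told apart, so "letrozole" means both. All mice are of a strain with its own lymphocytes, and each library holds the RNA of a whole piece of tumour, without sorting of cells.

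A T cell recognises a peptide through its receptor, a pair of variable chains that signals through the CD3 chains and the zeta chain. The coreceptors CD4 and CD8 bring the kinase LCK to this complex, and ZAP70 and the adaptor LAT pass the signal on. PD-1 is an inhibitory receptor of activated T cells, and antibodies against it are given to release such cells. NK cells kill without such a receptor, through activating receptors such as NKp46 and the same granules of perforin and granzymes.

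The level of a gene is its normalised count, the read count of 1 transcript divided by a size factor of the library. Read depth on 1 transcript per gene ran from 12452492 to 31294383, and the shallowest 2 libraries are anti-PD-1 replicates 1 and 2. Markers of luminal epithelium were abundant everywhere, with a summed level of 203815 or more for 7 genes in each tumour. Vehicle replicate 3 and anti-PD-1 replicate 1 were left out together in an alternative fit, and no outlier measure is given for them. Vehicle replicate 3 has the highest summed fibroblast and macrophage markers of its group. Its fibroblast sum was 60323, and letrozole replicate 5 had 68582. The fewest genes detected, 20951, were in anti-PD-1 replicate 1. In bulk tumour RNA, fewer cells of a type and less RNA per cell cannot be told apart.

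The depth divides the 44 genes into 3 sets. A level of 10 or more was reached in all 20 libraries by 9 genes (Thy1, Cd247, Foxp3, Tcf7, Ikzf2, Cd3d, Lef1, Il7r and Lck). It was reached in 5 to 19 libraries by 27 genes, and these 36 genes were tested. The other 8 (Cd3g, Cd69, Ifng, Gzmb, Gzmk, Prf1, Nkg7 and Klrd1) reached it in under 5. Just inside the threshold, at 5 libraries, lay Trbc1, Trbc2, Cd8b1, Icos, Ccr7, Tbx21 and Klrk1. Just outside lay Prf1 with 4 libraries, and Cd3g and Klrd1 with 3. The median level over 20 tumours had a median of 90.5 among the 9 genes, 6.67 among the 27 and 0.290 among the 8, where the median of all 19826 tested genes was 249. A library in which a gene has no read allows up to 3 reads, which is a normalised count of 6.35 in anti-PD-1 replicate 1 and 2.05 in anti-PD-1 replicate 5. Many single values of the 27 genes lie near these limits, which cover counting error alone.

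**Figure D1:**
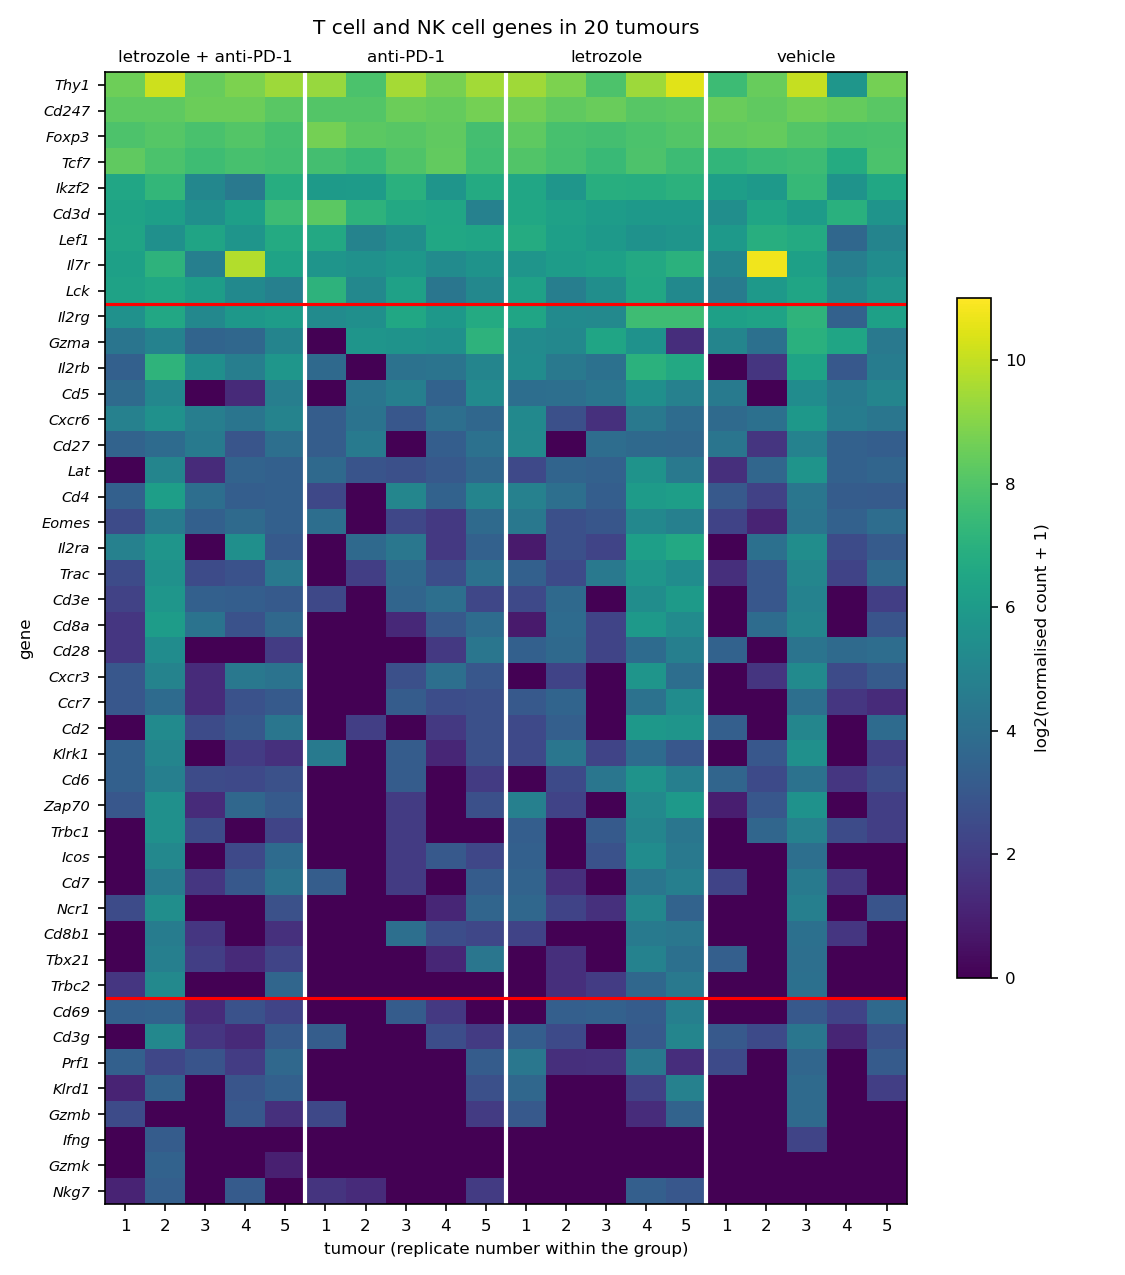
Level of 44 T cell and NK cell genes (rows) in 20 tumours (columns, 5 per group), as log2(normalised count + 1). Red lines separate the 9 genes with 10 or more in all libraries, the 27 with 10 or more in 5 to 19 libraries and the 8 below. The 27 genes are brightest in letrozole + anti-PD-1 replicate 2, letrozole replicates 4 and 5 and vehicle replicate 3.

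The constant region of the receptor alpha chain, Trac, is present in any alpha-beta T cell whatever its rearrangement. In the ovariectomised mice, Trac had normalised counts of 4.64, 46.9, 4.64, 5.82 and 20.8 in the letrozole + anti-PD-1 tumours, against 9.51, 4.51, 21.1, 54.1 and 39.7 in the letrozole tumours. In the sham-operated mice it had 0, 3.10, 12.4, 5.01 and 16.4 in the anti-PD-1 tumours, against 1.83, 6.81, 31.8, 3.57 and 12.6 in the vehicle tumours. All groups overlap. The highest value was in replicate 2 of the letrozole + anti-PD-1 group, replicate 5 of anti-PD-1, replicate 4 of letrozole and replicate 3 of vehicle. Trbc1, a constant region of the beta chain, had 0, 45.3, 4.64, 0 and 3.77 in the letrozole + anti-PD-1 tumours, against 8.77, 0, 7.66, 30.8 and 18.99 in the letrozole tumours. It had 0, 0, 2.76, 0 and 0 in the anti-PD-1 tumours, against 0, 11.3, 27.1, 4.76 and 3.15 in the vehicle tumours. Only replicate 3 of the anti-PD-1 tumours had reads, against 4 vehicle tumours. Trbc2, the other beta constant region, had 2.32, 35.4, 0, 0 and 11.3 in the letrozole + anti-PD-1 tumours, against 0, 1.80, 2.87, 11.7 and 20.7 in the letrozole tumours. It had no read in any anti-PD-1 tumour and reads in 1 vehicle tumour, at 15.9. Trbc1 and Trbc2 are near-identical copies, so the division of reads between them is uncertain.

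Of the CD3 chains, Cd3e and Cd3g were highest in the same tumours in each group but anti-PD-1, and Cd3d was not. Cd3e, the epsilon chain, had 3.48, 54.3, 9.28, 8.73 and 7.55 in the letrozole + anti-PD-1 tumours, against 4.39, 12.6, 0, 41.6 and 62.1 in the letrozole tumours. In the sham-operated mice Cd3e stood at 4.24, 0, 11.04, 15.03 and 4.10 in the anti-PD-1 tumours, against 0, 6.81, 28.1, 0 and 3.15 in the vehicle tumours. Cd3g, the gamma chain, had a highest value of 33.7, in the letrozole + anti-PD-1 tumour that was also highest in Cd3e. It reached 31.1 in the letrozole and 18.7 in the vehicle tumour highest in Cd3e. Among the anti-PD-1 tumours Cd3g reached 8.47, from 4 reads in replicate 1, while Cd3e was highest in replicate 4. Cd3d, the delta chain, had 81.1, 73.2, 43.3, 72.0 and 183 in the letrozole + anti-PD-1 tumours, against 92.1, 78.5, 66.1, 61.6 and 59.6 in the letrozole tumours. It had 301, 138, 98.0, 88.9 and 27.3 in the anti-PD-1 tumours, against 42.1, 88.5, 65.5, 127 and 51.2 in the vehicle tumours. The highest Cd3d level was thus in anti-PD-1 replicate 1, where Trac had no read, and the lowest in anti-PD-1 replicate 5, where Trac was highest of its group. Its transcript shares no exon bases with another annotated gene.

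Cd3g and Cd3d are read in opposite directions from starts 1355 bases apart on chromosome 9, and Cd3e lies further along the same chromosome. The 250 bases before each start are shown because of this difference between neighbours. They are RefSeq sequences of build GRCm38.p6, 5′ to 3′ on the gene's strand, and capitals mark GGAA, the core bound by ETS factors, or its reverse complement TTCC.
Cd3e (chr9:45009612-45009861, minus strand): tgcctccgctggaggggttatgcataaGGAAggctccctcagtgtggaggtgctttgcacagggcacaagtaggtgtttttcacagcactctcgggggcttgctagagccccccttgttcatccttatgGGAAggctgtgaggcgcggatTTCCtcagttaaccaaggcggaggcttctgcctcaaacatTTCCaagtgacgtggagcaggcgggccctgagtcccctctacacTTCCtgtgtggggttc
Cd3g (chr9:44980432-44980681, minus strand): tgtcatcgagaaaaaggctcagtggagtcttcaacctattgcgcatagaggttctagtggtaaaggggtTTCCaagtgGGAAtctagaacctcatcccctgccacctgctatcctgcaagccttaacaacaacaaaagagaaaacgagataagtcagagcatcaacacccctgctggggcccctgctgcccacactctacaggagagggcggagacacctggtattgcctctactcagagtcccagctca
Cd3d (chr9:44981536-44981785, plus strand): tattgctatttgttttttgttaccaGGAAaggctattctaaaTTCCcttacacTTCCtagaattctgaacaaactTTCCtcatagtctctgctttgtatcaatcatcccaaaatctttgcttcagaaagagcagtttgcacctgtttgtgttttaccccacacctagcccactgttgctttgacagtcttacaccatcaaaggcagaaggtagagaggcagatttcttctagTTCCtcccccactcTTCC
The motif occurs 5 times before Cd3e, 2 times before Cd3g and 6 times before Cd3d. It occurs in 93.4% of 32851 windows of the same length, counted on both strands. TGTGGT, a RUNX motif that does not overlap it here, occurs in none of the 3 windows and in 14% of all, and TATAAA also in none of the 3 and in 12.4% of all. Such matches describe the letters alone. Windows were found for 28 of the 44 genes.

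Per kilobase of transcript, the chains of the receptor complex were far apart in level, although they assemble together. The median over 20 tumours was 111 normalised counts per kilobase for Cd247 and 46.9 for Cd3d. It was 8.72 for Trac, 4.91 for Cd3e, 4.70 for Trbc1, 4.67 for Cd3g and 0 for Trbc2. Cd247, the zeta chain, ran from 267 to 412 over all tumours. Of the exon bases of its transcript, 87.5% also belong to other genes, mostly to Pou2f1, a broadly expressed transcription factor on the opposite strand. A Cd247 transcript that shares no bases with another gene (ENSMUST00000159070) had a 38.8-fold lower total. It is annotated as a retained intron, with 908 bases against 2957 in the counted transcript, so it does not measure the coding RNA. This retained intron ran from 0.773 to 23.9 in letrozole + anti-PD-1, 0 to 6.15 in anti-PD-1, 6.32 to 30.2 in letrozole and 0 to 13.1 in vehicle tumours. A coding Cd247 transcript with 12.1% of its exon bases shared (ENSMUST00000005907) had a total of 299, against 6645 for the counted one. The use of strand in counting is unknown here, so the level of Cd247 is uncertain.

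Among coreceptors, Cd4 marks helper and regulatory T cells and is also made by some myeloid cells. Cd4 had 9.27, 71.6, 14.7, 8.73 and 9.44 in the letrozole + anti-PD-1 tumours, against 27.8, 15.3, 8.62, 65.0 and 70.8 in the letrozole tumours. It had 4.24, 0, 31.8, 10.02 and 30.1 in the anti-PD-1 tumours, against 7.33, 3.40, 18.7, 8.33 and 7.88 in the vehicle tumours. One letrozole + anti-PD-1 tumour stands far above its group, and the other 4 lie between 8.73 and 14.7. Cd8a, the alpha chain of the coreceptor of cytotoxic T cells, had 2.32, 65.8, 17.02, 5.82 and 12.3 in the letrozole + anti-PD-1 tumours, against 0.731, 13.5, 3.83, 60.0 and 38.8 in the letrozole tumours. It had 0, 0, 1.38, 7.52 and 13.7 in the anti-PD-1 tumours, against 0, 13.6, 30.9, 0 and 6.31 in the vehicle tumours. No anti-PD-1 tumour exceeded 13.7. The beta chain, Cd8b1, had 0, 23.9, 2.32, 0 and 1.89 in the letrozole + anti-PD-1 tumours, against 3.66, 0, 0, 21.7 and 19.9 in the letrozole tumours. It had 0, 0, 15.2, 5.01 and 4.10 in the anti-PD-1 tumours, against 0, 0, 15.9, 2.38 and 0 in the vehicle tumours, and was at 0 in 9 of the 20.

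Of the proximal signalling genes, Lck was at 10 or more in every tumour, with a median of 47.1. Zap70 had 6.96, 45.3, 1.55, 11.6 and 7.55 in the letrozole + anti-PD-1 tumours, against 0, 0, 2.76, 0 and 5.47 in the anti-PD-1 tumours. The highest anti-PD-1 value lies below 4 of the 5 letrozole + anti-PD-1 values, and the groups overlap. Lat, the membrane adaptor, ran from 0 to 31.3 in letrozole + anti-PD-1 tumours and from 4.39 to 49.96 in letrozole tumours.

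The costimulation and adhesion genes were of 2 kinds. Thy1, a surface glycoprotein of mouse T cells that fibroblasts also make, had the highest level of the 44 genes per kilobase of transcript. Its normalised counts were 384, 1162, 350.4, 448 and 665 in the letrozole + anti-PD-1 tumours and 638, 233, 734, 429.7 and 718 in the anti-PD-1 tumours. It had 689, 449, 240.5, 660.4 and 1462 in the letrozole tumours, against 187, 348, 1049, 53.5 and 409.9 in the vehicle tumours. A list of 6 fibroblast markers summed to 41059 in letrozole + anti-PD-1 replicate 2 and to 60323 in vehicle replicate 3, the tumours with the most Thy1 and the highest fibroblast sum of their groups. In the letrozole group, replicate 5 was highest in both, with a fibroblast sum of 68582. In the anti-PD-1 group replicate 3 was highest in Thy1, and replicate 5 in the fibroblast sum, at 37923. The part of stromal cells in the Thy1 level was not tested. The rest, Cd2, Cd5, Cd6, Cd7, Cd27, Cd28 and Icos, had medians of 3.21 to 20.01. Cd28, the costimulatory receptor of naive cells, had 2.32, 39.5, 0, 0 and 2.83 in the letrozole + anti-PD-1 tumours, against 9.51, 12.6, 3.83, 13.3 and 25.9 in the letrozole tumours. Cd6, an adhesion receptor, had 9.27, 25.5, 4.64, 4.37 and 5.66 in the letrozole + anti-PD-1 tumours, against 0, 0, 8.28, 0 and 2.73 in the anti-PD-1 tumours. Icos, an inducible costimulator, had 9.51, 0, 5.75, 40.0 and 20.7 in the letrozole tumours, against 0, 0, 14.98, 0 and 0 in the vehicle tumours. These groups overlap for Cd28, Cd6 and Icos. Cd69, an early activation marker, was below the filter and highest at 25.9.

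**Figure D2:**
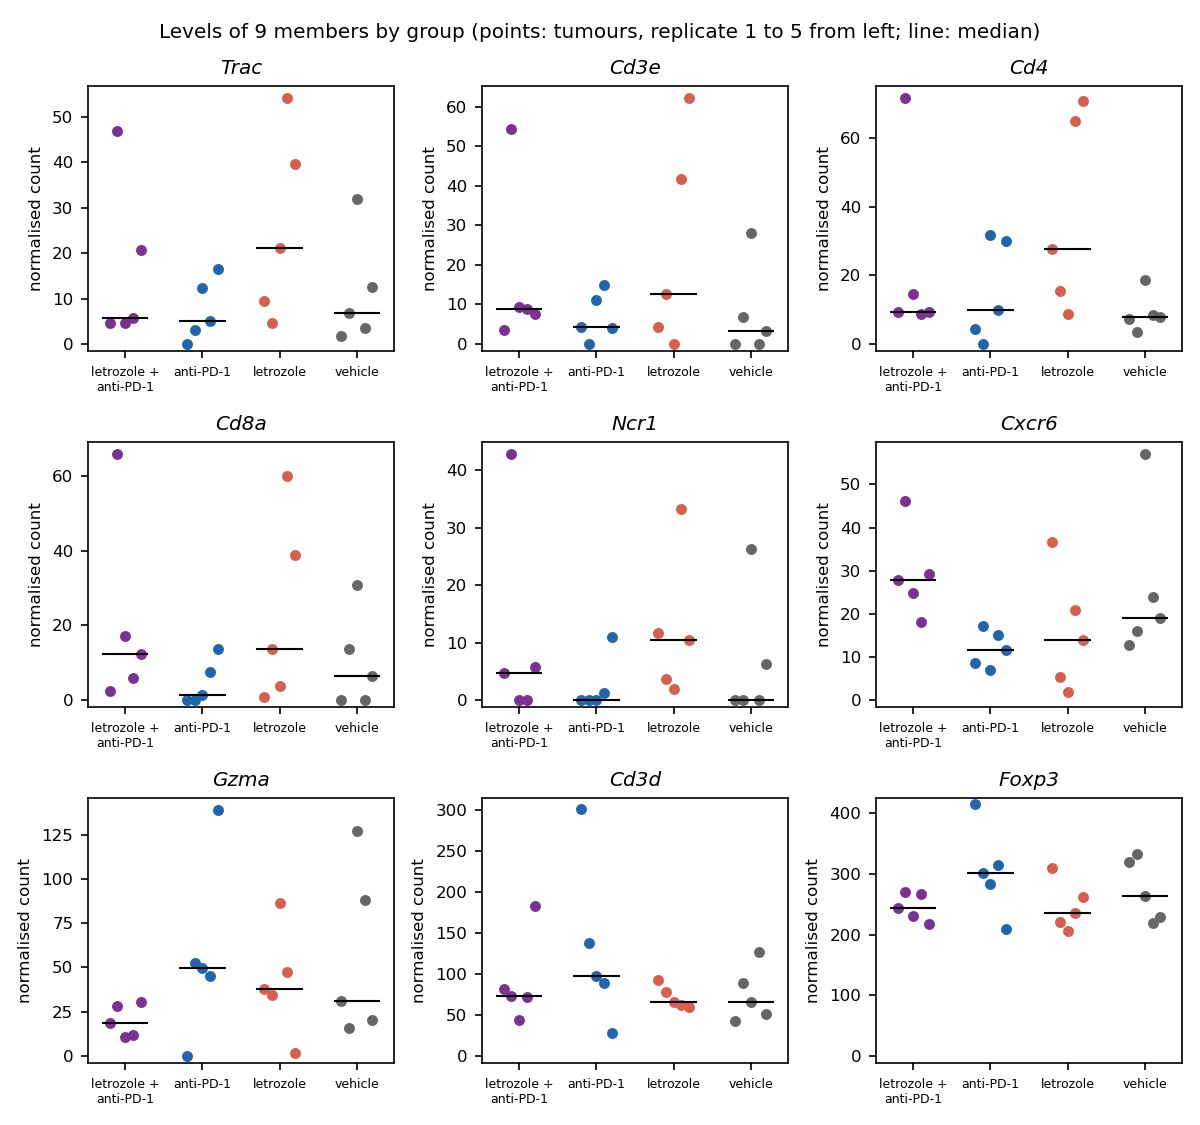
Normalised count of 9 of the genes in each tumour, by group (points, n = 5 each, replicates 1 to 5 from left to right; line, median). Trac, Cd3e, Cd4, Cd8a and Ncr1 are high in letrozole + anti-PD-1 replicate 2, letrozole replicate 4 and vehicle replicate 3, while Cd3d and Foxp3 are not. For Cxcr6 the letrozole + anti-PD-1 and anti-PD-1 groups do not overlap.

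Markers of the naive and memory state differed in how much they varied within a group. Tcf7, which encodes the factor TCF1 of naive and stem-like T cells and is also active in some epithelia, had 321, 233, 193, 223 and 202 in the letrozole + anti-PD-1 tumours and 212, 174, 249.9, 327 and 198 in the anti-PD-1 tumours. It had 257, 215, 174, 244 and 184 in the letrozole tumours, against 152, 172, 185, 107 and 233 in the vehicle tumours. Every group overlaps the others. Lef1, a relative of Tcf7, ran from 11.9 to 119 over all tumours, and 34.7% of its exon bases are shared. Il7r, the interleukin-7 receptor chain of resting T cells, was at 1725 in vehicle replicate 2 and 854 in letrozole + anti-PD-1 replicate 4. The other 18 tumours had at most 139, so those values do not follow the other T cell genes. Ccr7, the homing receptor of naive cells, was highest at 39.7, in letrozole replicate 5.

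Of the interleukin-2 receptor chains, Il2rb, the beta chain that T and NK cells share, had 9.27, 142, 43.3, 24.7 and 54.7 in the letrozole + anti-PD-1 tumours and 12.7, 0, 16.6, 17.5 and 30.8 in the anti-PD-1 tumours. It had 39.5, 20.8, 16.3, 129 and 98.4 in the letrozole tumours, against 0, 2.27, 83.3, 7.14 and 23.6 in the vehicle tumours. The letrozole and letrozole + anti-PD-1 tumours reach higher, and vehicle replicate 3, at 83.3, lies among them. The alpha chain Il2ra ran from 0 to 97.5 over the 20 tumours. The gamma chain Il2rg ran from 9.52 to 192, with 43.6% of its exon bases shared with the predicted gene Gm20489 on the same strand.

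Foxp3, the factor that defines regulatory T cells, appeared among the abundant genes, at 243, 269.9, 230.5, 266 and 217 in the letrozole + anti-PD-1 tumours, against 310.0, 220.1, 206, 236 and 262 in the letrozole tumours. It had 415, 302, 284, 316 and 209 in the anti-PD-1 tumours, against 321, 332, 264, 219 and 229 in the vehicle tumours. Its lowest value in any tumour was 206. The counted transcript (ENSMUST00000115740) overlaps other genes in 19.8% of its exon bases, including Ccdc22, a broadly expressed gene on the opposite strand. A coding Foxp3 transcript that shares 3.39% (ENSMUST00000234574) had an 18.7-fold lower total. Its levels were 8.11, 16.5, 4.64, 5.09 and 10.4 in the letrozole + anti-PD-1 tumours, against 25.6, 17.1, 12.5, 27.5 and 43.2 in the letrozole tumours. They were 16.9, 6.20, 5.52, 13.8 and 13.7 in the anti-PD-1 tumours, against 15.6, 9.08, 24.3, 3.57 and 6.31 in the vehicle tumours. The little-shared transcript was highest in letrozole replicate 5, and the counted one in anti-PD-1 replicate 1. Ikzf2, which encodes Helios of regulatory T cells, ran from 21.1 to 162 over the 20 tumours.

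**Figure D3:**
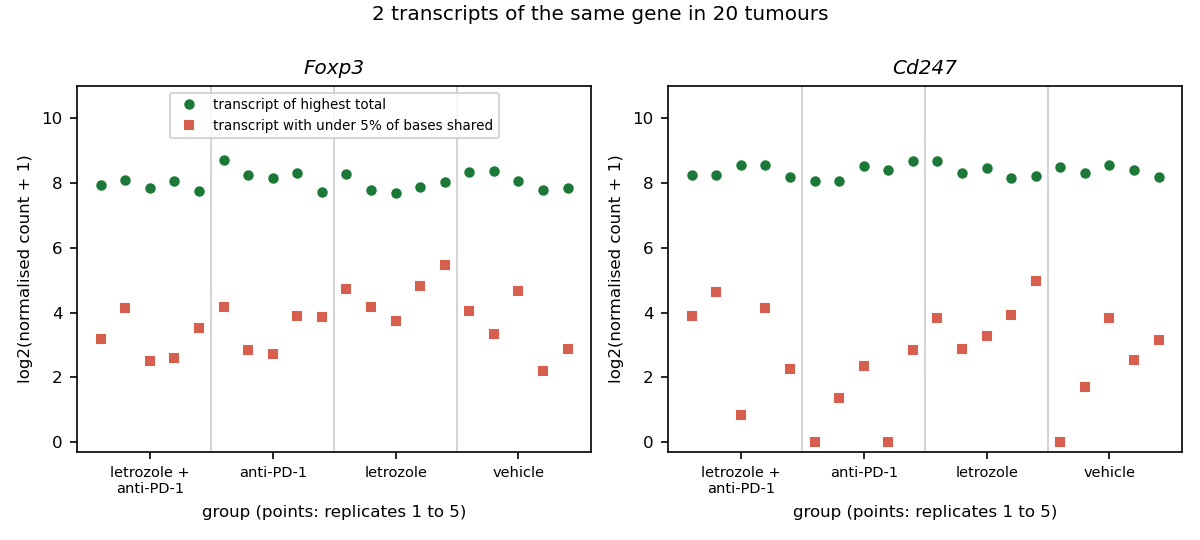
Foxp3 and Cd247 measured by the transcript of highest total (circles) and by a transcript with under 5% of its exon bases shared with other genes (squares), as log2(normalised count + 1) in 20 tumours. The Cd247 transcript shown by squares is annotated as a retained intron. The circles hardly vary between tumours, and the squares are lower and scattered, from 3.57 to 43.2 normalised counts for Foxp3 and from 0 to 30.2 for Cd247.

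Effector genes were near the limit of detection. Ifng, the cytokine interferon gamma, had reads in 2 tumours, letrozole + anti-PD-1 replicate 2 at 8.23 and vehicle replicate 3 at 3.74, and 20.6% of its exon bases are shared. Gzmk had reads in 2 tumours, both letrozole + anti-PD-1, at 9.87 and 0.944. Gzmb, the granzyme of activated killer cells, ran from 0 to 7.28 in letrozole + anti-PD-1 tumours and 0 to 4.24 in anti-PD-1 tumours. It ran from 0 to 10.4 in letrozole tumours and 0 to 13.1 in vehicle tumours, where 1 tumour had reads. Prf1, the pore-forming perforin, had 9.27, 4.11, 6.19, 2.91 and 12.3 in the letrozole + anti-PD-1 tumours, against 19.7, 1.80, 1.92, 19.99 and 1.73 in the letrozole tumours. In the sham-operated mice Prf1 had 0, 0, 0, 0 and 8.20 in the anti-PD-1 tumours, against 4.58, 0, 11.2, 0 and 7.88 in the vehicle tumours. Nkg7, a granule protein, had reads in 8 of 20 tumours and none in a vehicle tumour, and at most 9.16. Gzma was the exception, with 18.5, 28.0, 10.83, 11.6 and 30.2 in the letrozole + anti-PD-1 tumours and 0, 52.7, 49.7, 45.1 and 139 in the anti-PD-1 tumours. It had 38.0, 34.3, 86.2, 47.5 and 1.73 in the letrozole tumours, against 31.1, 15.9, 127, 88.0 and 20.5 in the vehicle tumours. Gzma was at 1.73 in letrozole replicate 5, a tumour high in most of the other genes.

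Ncr1, which encodes the NK receptor NKp46, had 4.64, 42.8, 0, 0 and 5.66 in the letrozole + anti-PD-1 tumours, against 11.7, 3.61, 1.92, 33.3 and 10.4 in the letrozole tumours. It had 0, 0, 0, 1.25 and 10.9 in the anti-PD-1 tumours, against 0, 0, 26.2, 0 and 6.31 in the vehicle tumours. Klrd1, a chain of NK inhibitory receptors, was at 0 in 10 of 20 tumours and highest, at 27.6, in letrozole replicate 5. The effector transcription factors Eomes and Tbx21 had medians of 9.48 and 1.35. Cxcr6, a homing receptor of effector and tissue-resident lymphocytes, had 27.8, 46.1, 24.8, 18.2 and 29.2 in the letrozole + anti-PD-1 tumours and 8.47, 17.1, 6.90, 15.03 and 11.6 in the anti-PD-1 tumours. It had 36.6, 5.41, 1.92, 20.8 and 13.8 in the letrozole tumours, against 12.8, 15.9, 57.1, 23.8 and 18.9 in the vehicle tumours. Every letrozole + anti-PD-1 tumour was above every anti-PD-1 tumour, by 18.2 against 17.1 at the nearest.

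Tumours of the same group differed widely. Summed over the 27 genes of 5 to 19 libraries, letrozole + anti-PD-1 replicate 2 had 1155, where the other 4 tumours of its group had 217 to 415. The anti-PD-1 tumours ran from 133 to 534. Letrozole replicates 4 and 5 had 1244 and 1059, where the other 3 had 253 to 415. Vehicle replicate 3 had 1046, where the other 4 had 209 to 298. For 25 of the 27 genes the highest letrozole + anti-PD-1 value was in replicate 2, and for all 27 the highest vehicle value was in replicate 3. In the letrozole group the highest value was in replicate 4 for 14 genes and in replicate 5 for 9. In the anti-PD-1 group no tumour held the highest value of more than 11 genes. These sums and counts are descriptions, with no test.

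Markers of some other cell types were high in the same tumours, and others were not. The counts here are of markers with the highest value of their own group in the named tumour. The letrozole count takes 2 of 5 tumours and each other count 1 of 5, so they are not on equal terms. Of 10 macrophage markers, 8 were highest in letrozole + anti-PD-1 replicate 2, 8 in letrozole replicate 4 or 5, and 10 in vehicle replicate 3. Their summed level ran from 5873 to 13314 in letrozole + anti-PD-1, 2927 to 9851 in anti-PD-1, 7040.3 to 13578 in letrozole and 2027 to 18419.6 in vehicle tumours. Of 7 dendritic cell markers, 4, 7 and 6 were highest in those tumours in the same order. Of 6 fibroblast markers the numbers were 6, 6 and 5, and of 6 mast cell markers 6, 1 and 5. They were 4, 5 and 3 of 6 plasma cell markers, and 2, 4 and 1 of 7 luminal markers. Of 5 neutrophil markers, 4 had reads in each of these groups, and the numbers were 0, 4 and 1. The dendritic cell sum ran from 393 to 903 in letrozole + anti-PD-1, 268 to 508 in anti-PD-1, 355 to 905 in letrozole and 162 to 938 in vehicle tumours. Of 8 lymph node markers, 5, 5 and 7 were highest there, and their sum reached 698 in letrozole + anti-PD-1, 239 in anti-PD-1, 798 in letrozole and 313 in vehicle tumours. Among them Ccl21a, a chemokine of lymph node stroma, was at 229 in letrozole + anti-PD-1 replicate 2 and at 102 and 256 in letrozole replicates 4 and 5. It was at 83.0 in letrozole + anti-PD-1 replicate 4 and at 14.98 in vehicle replicate 3. Of 8 B cell markers, 1 was highest in letrozole + anti-PD-1 replicate 2, 6 in letrozole replicate 4 or 5 and 1 in vehicle replicate 3. Letrozole + anti-PD-1 replicate 3 had the highest B cell sum, 425, and all remaining tumours lay between 55.8 and 119. Ms4a1 did not exceed 9.44, Pax5 6.90 and Cd79a 30.1 in any tumour. Of 5 adipocyte markers, 0 were highest in letrozole + anti-PD-1 replicate 2, 0 in letrozole replicate 4 or 5 and 5 in vehicle replicate 3. Of 5 endothelial markers, the numbers were 0, 1 and 4. Skeletal muscle markers summed to 1107 in letrozole + anti-PD-1 replicate 2 and to 525 and 612 in letrozole replicates 4 and 5, but to 730.5 in letrozole replicate 1, where the sum of the 27 genes was 415, and to 30.9 in vehicle replicate 3. The part of these cells, or of the place a piece was cut from, was not tested.

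**Figure D4:**
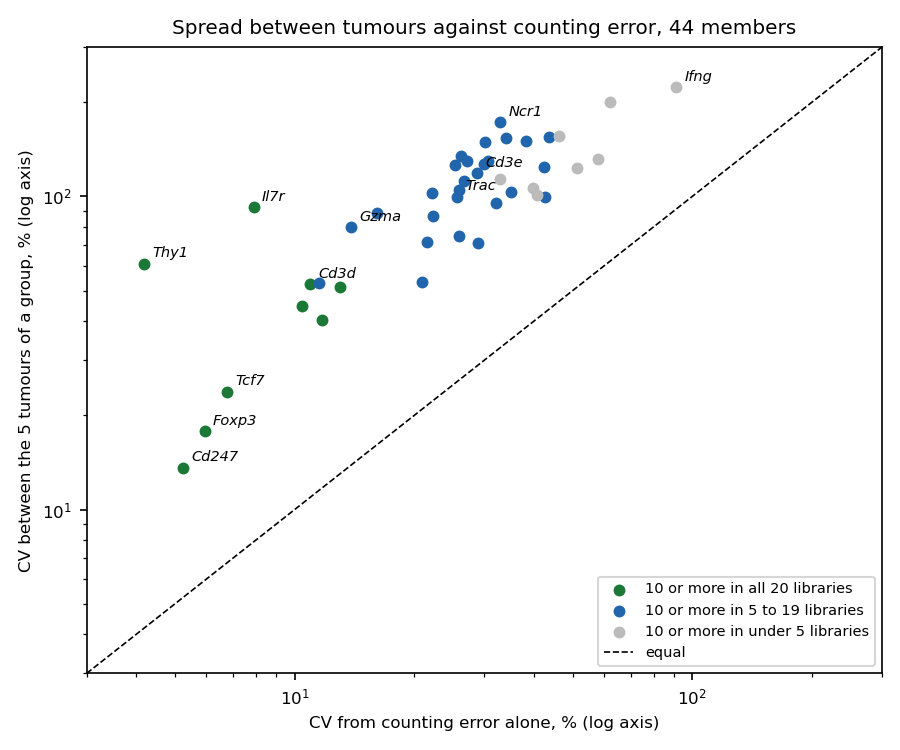
Coefficient of variation between the 5 tumours of a group against that from counting reads alone, for 44 genes (both axes log, %, median over the 4 groups). All points lie above the dashed line of equality, at a median of 105% against 27.2% for the 27 genes of 5 to 19 libraries.

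The spread between tumours was several times the counting error. For the 27 genes the median coefficient of variation between tumours of a group was 105%, and counting error alone gives 27.2%. Among read counts of 1 to 20, 78.2% of the 348 values of the 44 genes were even. Over all genes the share was 56.0% to 63.8%, depending on the library. If each pair of mates was counted as 2 reads, the counting error would be 38.5%. For the 9 abundant genes the spread was 44.6% and the counting error 7.89%, and for the 8 genes below the filter 128% and 48.7%. For a log2 difference between groups, the standard error had a median of 1.07 for the 27 genes, 0.47 for the 9 and 0.24 for all tested genes. The 95% interval of a difference therefore reached a median of 4.72-fold on either side for the 27 genes and 1.98-fold for the 9.

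Anti-PD-1 was compared with vehicle in sham-operated mice. None of the 36 tested genes was called by limma at an adjusted p of 0.05, where 0% of all 19826 genes were called. At an unadjusted p under 0.05 stood 1 of 36, beside 2.71% of all genes, and no gene had groups that did not overlap, beside 0.409%. By edgeR the count was also 0, beside 0% of all genes, and by DESeq2 0, beside 0.0252%, with 2 of 36 under an unadjusted 0.05 by each tool, where edgeR had 2.78% and DESeq2 2.73% of all genes. Cd4 differed by −0.01 on the log2 scale (95% interval −1.77 to 1.76), Cd8a by −0.70 (−3.12 to 1.71) and Cd3e by 0.49 (−1.84 to 2.82). Each of these 3 intervals extends by more than 1 log2 unit to either side of 0. Foxp3 differed by 0.15 (−0.21 to 0.51), for the transcript whose reads are shared. The smallest p was that of Tcf7, at a log2 difference of 0.46 (SE 0.21, unadjusted p = 0.0437, limma adjusted p = 1.000), followed by Trbc1 at −2.22 (SE 1.09) and Cd6 at −1.87 (SE 0.92). Of the 36 genes 13 were higher and 23 lower, with a median of −0.33 where the median of all genes was 0.00. The median was 0.20 without vehicle replicate 3 (23 higher, 12 lower), 0.42 without it and anti-PD-1 replicate 1 together, and −0.51 without anti-PD-1 replicate 5. The direction of the list thus rests on single tumours. Anti-PD-1 libraries 1 to 4 were also shallower than any vehicle library, at 12452492 to 17895896 reads against 19042874 to 27890999.

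The antibody was also compared within letrozole-treated mice. Again 0 of 36 genes were called by limma, where 0% of all genes were, and 1 of 36 had an unadjusted p under 0.05 beside 3.16% of all. By edgeR 0 were called, beside 0% of all genes, and by DESeq2 0, beside 0.0454%, with 0 under an unadjusted 0.05 by each tool, where edgeR had 3.26% and DESeq2 3.62% of all genes. No gene's groups were free of overlap, beside 0.54% of all genes. Cd4 differed by −0.83 on the log2 scale (95% interval −2.60 to 0.93), Cd8a by 0.06 (−2.36 to 2.47) and Cd3e by 0.02 (−2.31 to 2.35). Foxp3 differed by 0.00 (−0.36 to 0.36), and its little-shared transcript by −1.41 (SE 0.52, limma adjusted p = 1.000). Cxcr6 had the smallest p, at 1.30 (SE 0.57, unadjusted p = 0.0352, limma adjusted p = 1.000), followed by Cd28 at −1.80 (SE 1.06) and Lat at −1.26 (SE 0.85). Of the 36 genes 12 were higher and 24 lower, with a median of −0.25 against −0.01 for all genes. Without letrozole replicate 5 the median was 0.05, and without letrozole + anti-PD-1 replicate 2 it was −0.68. Averaged over both arms, 0 of 36 genes were called (0% of all genes), and 2 of 36 had an unadjusted p under 0.05, Cd28 at −1.83 and Trbc1 at −1.65, beside 3.76% of all genes. DESeq2 called 0 of 36 there, beside 0.00504% of all genes, and edgeR 0, beside 0%.

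**Figure D5:**
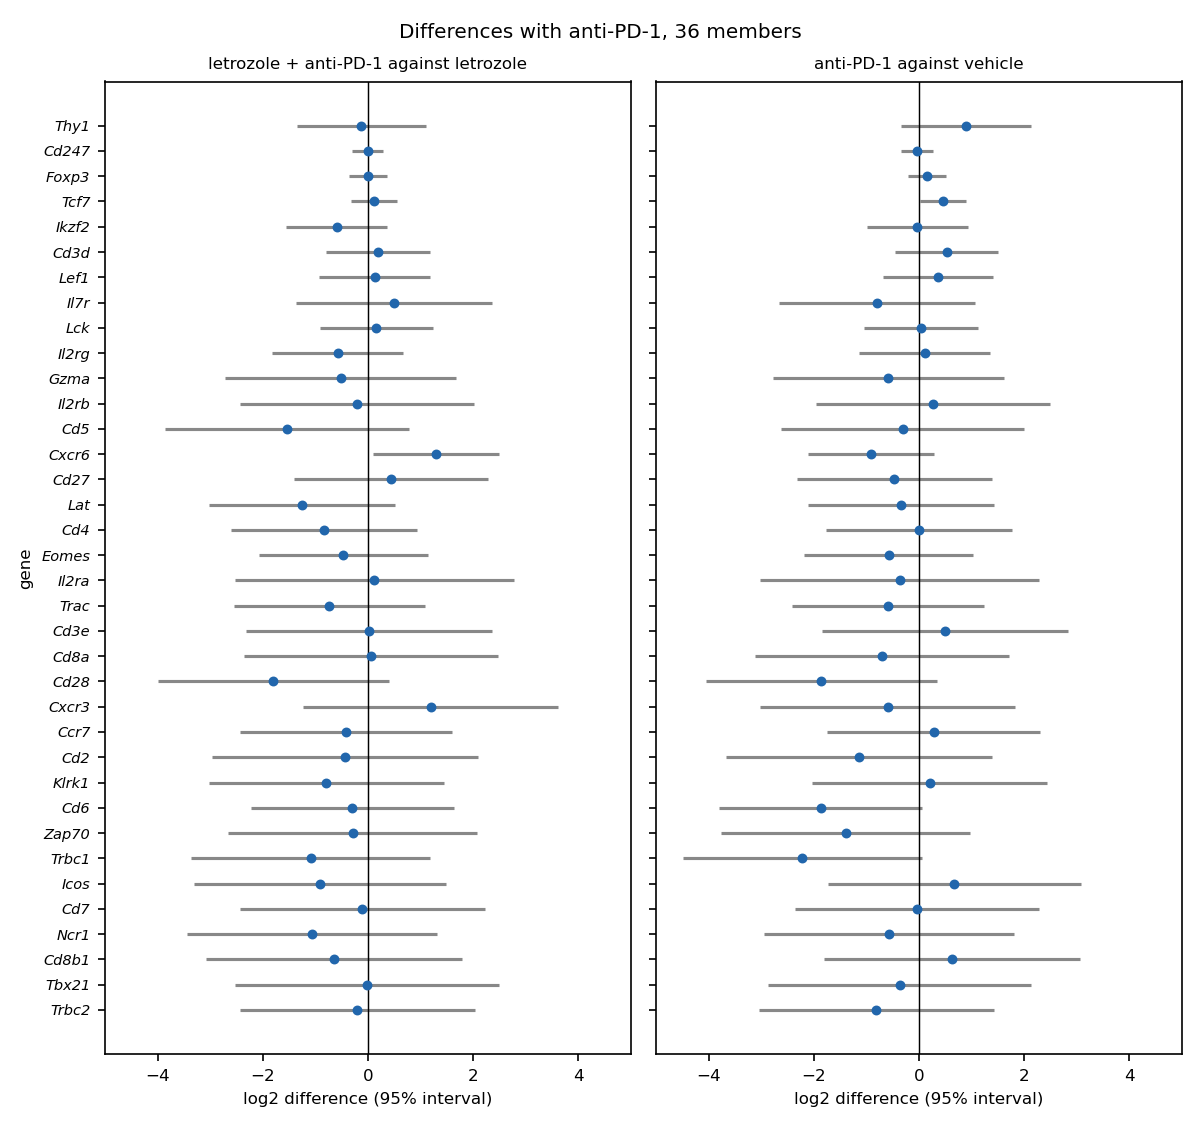
Log2 difference of 36 tested genes (points) with 95% intervals (bars), for letrozole + anti-PD-1 against letrozole (left) and anti-PD-1 against vehicle (right), 5 tumours per group. The intervals are narrow for Cd247, Foxp3 and Tcf7 and several log2 units wide for most others.

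The letrozole comparisons gave calls among all genes and 0 among these 36. At shares of 0.958% and 1.07% of all genes, 0 of 36 does not set the list apart. Against vehicle 0 of 36 genes were called by limma, beside 0.958% of all genes, and 0 had groups without overlap, beside 3.68%. At an unadjusted p under 0.05 stood 1 of 36, beside 13.9% of all genes. By edgeR 0 of 36 were called, beside 0.852%. DESeq2 called 0, beside 3.14%, but gave no adjusted p for 26 of the 36. Without vehicle replicate 3, limma called 4.06% of all genes and still 0 of 36, and 7 of 36 had an unadjusted p under 0.05, beside 20.5%. The smallest p was that of Il2rb, at 2.36 (SE 1.07, limma adjusted p = 0.33), followed by Icos at 2.39 and Cd4 at 1.70. Il2rb was at 3.17 without vehicle replicate 3 (limma adjusted p = 0.0812). In the mice given antibody, letrozole + anti-PD-1 against anti-PD-1 also gave 0 of 36, beside 1.07%, and 3 of 36 had an unadjusted p under 0.05, beside 13.4%. EdgeR called 0 of 36, beside 0.953%, and DESeq2 0, beside 2.69%, with no adjusted p for 25 of the 36. By each of these tools 5 of 36 were under an unadjusted 0.05, beside 12.7% of all genes by edgeR and 13.2% by DESeq2. Cxcr6, at 1.24 (SE 0.57, limma adjusted p = 0.349), was the 1 of 36 genes whose groups did not overlap there, beside 2.84% of all genes. Cd6 differed by 2.13 and Zap70 by 2.40, with limma adjusted p-values of 0.312 and 0.361.

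Averaged over both arms, 0 of 36 genes were called by limma beside 7.01% of all genes, and 5 of 36 had an unadjusted p under 0.05 beside 22.9%. By edgeR 0 were called, beside 6.52%, with 6 of 36 under an unadjusted 0.05, beside 21.1%. By DESeq2 0 were called, beside 10.2%, with 7 of 36 under an unadjusted 0.05, beside 21.8%. DESeq2 gave no adjusted p for 21 of the 36 in that comparison. Il2rb came closest, at a log2 difference of 2.12 (SE 0.76, limma adjusted p = 0.0952). Without vehicle replicate 3, the vehicle tumour with the most Il2rb, it was called, at 2.52 (limma adjusted p = 0.0247). Without that tumour and anti-PD-1 replicate 1 together, Il2rb was called at 2.57 (limma adjusted p = 0.0296). Without vehicle replicate 3, 11.7% of all genes were called, and 13 of 36 had an unadjusted p under 0.05, beside 27.8%. Over all alternatives of the Il2rb difference the adjusted p ran from 0.0247 to 0.193. Of the 36 genes 31 were higher and 5 lower with letrozole, with a median of 0.67 against 0.03 for all genes. Leaving out 1 tumour at a time, the median ran from 0.50 without letrozole + anti-PD-1 replicate 2 to 1.04 without vehicle replicate 3. With quantile scaling it was 0.39, with 27 genes higher and 9 lower. Among the 12 genes that passed a filter of 50 in place of 10, 8 were higher and 4 lower, at a median of 0.17. In the main fit macrophage markers were also higher, 10 of 10 at a median of 0.73 with Cd14 called, beside 7.01% of all genes. Summed dendritic cell markers had means of 571 in letrozole + anti-PD-1 and 604 in letrozole tumours, against 411 in anti-PD-1 and 415 in vehicle tumours. Lymph node sums had 300 and 429 against 179 and 148 in the same order. Mast cell sums had means of 548 and 809 against 896 and 758, but medians of 543 and 845 against 742 and 494. The part of these cell types in the shift was not tested.

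The combination was set against vehicle as well. It gave 0 of 36 genes called by limma, beside 1.18% of all genes, and 0 without overlap beside 2.92%. EdgeR called 0, beside 1.09%, and DESeq2 0, beside 3.39%, with no adjusted p for 25 of the 36. Without vehicle replicate 3, limma called 3.51% of all genes and 0 of 36, with 4 of 36 under an unadjusted 0.05, beside 19.2%. Tcf7 had the smallest p, at 0.48 (SE 0.21, limma adjusted p = 0.328), followed by Il2rb at 2.15 and Thy1 at 0.99. The test of whether the antibody's effect differs with letrozole called 0 of 36 genes, where 0% of all were called, and 1 of 36 had an unadjusted p under 0.05 beside 1.97%. EdgeR called 0, beside 0% of all, and DESeq2 0, beside 0.0202%. That gene was Cxcr6, with an interaction of 2.22 on the log2 scale (SE 0.81, unadjusted p = 0.0128, limma adjusted p = 1.000). The comparisons with a shared group, such as both sets of letrozole tumours, are not independent of each other.

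Other genes of these pathways were examined beside the 44. Of 26 genes of proximal T cell receptor signalling, 21 were tested, and 2 were called with letrozole averaged over both arms, where 7.01% of all genes were. Malt1, the protease of the signalling complex behind NF-kB, fell by 0.36 on the log2 scale (SE 0.09, limma adjusted p = 0.0195), to means of 935 in letrozole + anti-PD-1 and 1056 in letrozole tumours, against 1216 in anti-PD-1 and 1351 in vehicle tumours. It was also called for letrozole + anti-PD-1 against vehicle (log2 −0.52, SE 0.13, limma adjusted p = 0.0443). Csk, the kinase that restrains LCK and its relatives in most cell types, rose by 0.22 (SE 0.06, limma adjusted p = 0.0452). This call was lost in 21 of 34 alternatives, among them edgeR (adjusted p = 0.054), the replicate block and 16 of the 20 that leave out 1 tumour, and the adjusted p ran from 0.0158 to 0.178. It was kept without vehicle replicate 3, anti-PD-1 replicate 3, letrozole replicate 2 or letrozole + anti-PD-1 replicate 4. Of 15 T cell transcription factors all were tested and 1 was called, again beside 7.01%. Gata3, which also specifies luminal mammary cells, rose by 0.45 (SE 0.08, limma adjusted p = 0.0023), to means of 31169 in letrozole + anti-PD-1 and 31818 in letrozole tumours, against 23216 in anti-PD-1 and 23154 in vehicle tumours. The lowest level of any of these 3 genes in a tumour was 838 normalised counts. With the antibody none of these lists had a called gene in either comparison, where 0% of all genes were called. The smallest p-values were those of Trdc (1.48, SE 0.69), Csk and Plcg1 against vehicle, and of Bcl11b (−1.69, SE 0.87), Srgn and Runx3 within letrozole. All 6 had a limma adjusted p of 1.000. Of 20 NK receptor and adaptor genes 7 were tested, of 18 cytotoxic and cytokine genes 7, and of 8 T cell attracting chemokines 7. Of 11 listed gamma delta T cell genes 8 were matched and 3 tested. In these lists 0 genes were called by limma in each contrast. Of all genes, 0% were called in the antibody and interaction contrasts and 0.958% to 7.01% in the others.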

How the data were processed

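RNA of 20 tumours was sequenced as bulk libraries made from 1 µg of total RNA, and all 20 were used. STAR 2.7.10a, DESeq2 and the genome build GRCm39 (mm39) are named, per the submitters' processing notes. The authors deposited a signal per transcript, read counts divided by a size factor, for 127442 Ensembl transcripts. Read counter, annotation and strand use: not given in the sources used here.

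Whole reads were recovered for 100% of values (tolerance 0.001), with size factors of 0.472 to 1.46. GENCODE M21 (GRCm38) named 93.3% of transcripts, while 8571 stayed unnamed (1.79% to 2.77% of reads) and were dropped, as were 79 symbols with several identifiers. The design had assumed genes, so each gene is its transcript with the highest total. Sequences are RefSeq promoters of GRCm38.p6, and no sequence was read by coordinates.

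Genes with 10 or more in 5 or more libraries (19826) were tested with limma 3.58.1 (trend) on log2(value + 1), in 1 fit of 4 group means, two-sided, with Benjamini and Hochberg adjustment over all genes of a contrast at 0.05. Differences on this scale understate changes of low genes. The recovered reads were also tested with DESeq2 1.42.0 and edgeR 4.0.16. The fit was tested on simulated data. The 44 genes, the other lists and the naming rule were chosen with earlier results of these data known. The rule describes members past the filter by role, with full values for receptor, coreceptor, killer and NK genes, Foxp3 and the 3 of smallest p per pairwise contrast. Members below the filter are given by range. Of other lists it names called genes and the 3 of smallest p with the antibody, and other genes were picked after their values were seen. The submitters call the tumours biological replicates, and the labels name no batch. P-values measure the spread between these tumours. Replicate numbers did not pair the libraries: deviations of same-numbered libraries correlated at −0.344 to 0.197, with 3 of 30 pairs above 0.1.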

Additional observations from a re-analysis of the deposited data

Results flagged for a closer look

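Over the 36 tested genes, 144 groups of 5 tumours were examined for a tumour far from the other 4 on the log2 scale, and 14 held one. Chance gives about 1 in 20 groups for independent values of a normal distribution. Here many values are 0, a group with reads in 1 tumour alone is always flagged, and the genes share the same tumours. The 14 therefore cannot be set against that rate. Several of the 14 are values of 0 in genes of few reads.

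High values in a single tumour were Il7r at 1725 in vehicle replicate 2 (others 25.0 to 75.8), Cd4 at 71.6 in letrozole + anti-PD-1 replicate 2 (others 8.73 to 14.7), and Tbx21 at 19.1 in anti-PD-1 replicate 5 (others at most 1.25). In vehicle replicate 3, Trbc2 was at 15.9 and Icos at 14.98 where the other vehicle tumours had no read. Trbc1 was at 2.76 in anti-PD-1 replicate 3 and at 0 in the other anti-PD-1 tumours.

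Low values in a single tumour included Gzma, at 0 in anti-PD-1 replicate 1 (others 45.1 to 139) and at 1.73 in letrozole replicate 5 (others 34.3 to 86.2). Il2rg was at 9.52 in vehicle replicate 4 (others 74.1 to 142). In vehicle replicate 2, Cd5 was at 0 (others 21.4 to 39.3) and Cd28 at 0 (others 10.1 to 17.8). Cd27 was at 0 in anti-PD-1 replicate 3 (others 8.47 to 21.7) and at 0 in letrozole replicate 2 (others 12.1 to 35.1). Il2rb was at 0 in anti-PD-1 replicate 2 (others 12.7 to 30.8).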

How the results depend on the processing

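Of 1110 values recomputed under alternatives, 1040 kept their direction and their side of the threshold. Of the differences followed, only those of Malt1, Csk and Gata3 were called in the main fit. The counts of members called were 0 there in each contrast. Most of the values thus had no call to lose, so the number kept does not measure how stable a call is. The count of members called for letrozole averaged over both arms was 0 of 36. It was 1 with array weights, without vehicle replicate 3, and without vehicle replicate 3 and anti-PD-1 replicate 1 together. Of all 19826 genes, 2576 were called with array weights and 2324 (11.7%) without vehicle replicate 3. The cause was not tested. Of the member differences followed, 6 changed sign, from 4 genes, and none of them was called. For Cd3e in anti-PD-1 against vehicle (0.49), the sum over transcripts gave −0.088, edgeR −0.14, DESeq2 −0.14 and leaving out 1 tumour −0.0037 to 1.21. For Cd4 in that contrast (−0.01), pseudocount 5 gave 0.22, quantile scaling 0.26, array weights 0.17, both tumours out 0.47, edgeR 0.75, DESeq2 0.76 and leaving out 1 tumour −0.47 to 0.79. For Cd8a (−0.70), both tumours out gave 0.37. For letrozole + anti-PD-1 against letrozole, Cd3e (0.02) was −0.21 with pseudocount 5, −0.086 with quantile scaling, −0.10 with array weights, −0.52 with edgeR, −0.53 with DESeq2 and −0.86 to 0.64 leaving out 1 tumour. Cd8a (0.06) was −0.065 with pseudocount 5, −0.0088 with quantile scaling, −0.040 as a sum over transcripts, −0.17 with edgeR, −0.17 with DESeq2 and −0.65 to 0.63 leaving out 1 tumour. Foxp3 (0.00) was −0.0067 with array weights, −0.080 as a sum, −1.41 for the transcript with little shared sequence, an alternative chosen after seeing the data, −0.0051 with edgeR, −0.0040 with DESeq2 and −0.059 to 0.088 leaving out 1 tumour. With the replicate block, 0 members were called in each contrast, and 221 genes of all those tested in letrozole against vehicle; 1 gene was called in letrozole + anti-PD-1 against letrozole. Counts over all genes moved more: 85 to 1136 for letrozole against vehicle, and 934 to 2576 for letrozole averaged.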

Other observations

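These genes were picked after their values were seen. Il21, which encodes a cytokine of helper T cells, was not among the 44 genes and did not pass the filter. It had 2041 normalised counts in letrozole replicate 1 and 5272 in vehicle replicate 5, and at most 13.95 in the other 18 tumours. The summed level of the 27 T cell and NK cell genes with 10 or more in 5 to 19 tumours was 415 in that letrozole tumour and 298 in that vehicle tumour, against a highest sum of 1244 in letrozole replicate 4. Il21 shares 1.14% of its exon bases with another.

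Constant-region genes of the gamma receptor chain were at or near 0. Tcrg-C1 had reads in 1 of 20 tumours, Tcrg-C2 in 2 and Tcrg-C4 in 6, with at most 7.49 normalised counts. Il2 had reads in 3 tumours, at most 1.16, and Fasl, the death ligand of killer cells, reached 24.7 in letrozole + anti-PD-1 replicate 2.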
